A study of Mus musculus with 23 samples.

Results

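The 26S proteasome is the protease that degrades most ubiquitin-tagged proteins in the cell, and its subunit genes were followed here in the hypothalamus of db/db mice given celastrol or vehicle. The genes were taken from a list of 31 that encode the 20S core and the 19S regulatory particle, and each was measured by a probe set that names it alone, the brightest where there were several. All 31 were found among 18704 genes measured in this way. The list holds 7 alpha ring subunits, 3 catalytic and 4 other beta ring subunits, 6 ATPases and 3 other subunits of the base, and 8 subunits of the lid. It was chosen with earlier results of these data known and without a threshold on any measured value.

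Celastrol is a plant triterpene that lowers food intake and body weight in diet-induced obese mice. Every group consisted of male db/db animals, 8 weeks old and kept on chow for 2 weeks; this strain carries a defective leptin receptor. The groups were celastrol at 6 h (3 arrays), 1 day (4 arrays) and 4 days (4 arrays), and DMSO vehicle at 6 h, 1 day and 4 days (4 arrays each), all injected intraperitoneally. Per the labels, the 6-h celastrol dose was 250 µg/kg, while the dose per body weight at 1 day and 4 days is not stated. The labels also give a volume of 100 µl with DMSO at 25 µl per day for celastrol, without saying clearly which times it covers, and DMSO at 25 µl per day for vehicle. Each array held the total RNA of 1 sample labelled a biological replicate. Whether a sample was 1 animal is not stated, so the p-values measure the spread between these samples. Lean mice with an intact leptin receptor were not analysed here.

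The core is a barrel of stacked rings. The outer alpha rings gate the entry and the inner beta rings hold the active sites, of which Psmb6 carries the caspase-like, Psmb7 the trypsin-like and Psmb5 the chymotrypsin-like activity. The 19S particle caps the barrel: its base unfolds substrates with the ATPases Psmc1 to Psmc6, and its lid removes ubiquitin through the protease Psmd14. Proteasome genes are known to be raised together by the transcription factor Nfe2l1 when proteasome activity is blocked in mammalian cells, and celastrol has been described as a proteasome inhibitor in cultured cells.

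RefSeq promoters (build GRCm38.p6, the 250 bases before the transcription start) were found for 25 of the 31 genes. The antioxidant response element core TGACNNNGC, the core of the sites that Nfe2l1 binds, was searched on both strands and was present in 4 of the 25 (16%), against 11.5% of 27025 genes with a promoter. A gene with several listed starts was counted once. The 4 stretches are shown because they hold this element, in capitals. They lie at chr14:54617996-54618055 (minus strand) for Psmb5, chr11:70525297-70525356 (plus) for Psmb6, chr14:45329574-45329633 (plus) for Psmc6 and chr11:107479278-107479337 (plus) for Psmd12, each printed 5′ to 3′ along the gene.
Psmb5: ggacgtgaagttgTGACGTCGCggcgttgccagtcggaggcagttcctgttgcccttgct
Psmb6: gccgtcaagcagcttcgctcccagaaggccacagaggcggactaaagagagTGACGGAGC
Psmc6: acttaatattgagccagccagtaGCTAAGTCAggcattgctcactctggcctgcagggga
Psmd12: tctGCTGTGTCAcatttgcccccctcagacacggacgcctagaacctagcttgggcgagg

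Other motifs were searched in the same windows, on both strands. The nuclear respiratory factor site (GCGC, any 2 bases, GCGC) was present in 6 of the 25 genes (24%), against 5.64% of all genes, and the ETS site CCGGAAG in 9 (36%), against 7.83%. The CCAAT box, searched as CCAAT, was present in 10 (40%), against 37.5% of all genes, and the heat shock element (GAA, TTC and GAA with any 2 bases between each) in 0, against 0.514%. Psma3 and Psmd14, the 2 genes that passed the test between vehicle at 4 days and at 6 h, each held a CCAAT box and a nuclear respiratory factor match, given in capitals here. Psma2, which did not pass that test, held both as well and is not printed. The Psma3 stretch is chr12:70974473-70974622 and the Psmd14 stretch chr2:61711524-61711693, both on the plus strand. A match describes the letters of the window and does not show that a factor binds there.
Psma3: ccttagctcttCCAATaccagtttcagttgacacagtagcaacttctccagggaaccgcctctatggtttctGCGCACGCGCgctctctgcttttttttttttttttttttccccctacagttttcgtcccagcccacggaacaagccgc
Psmd14: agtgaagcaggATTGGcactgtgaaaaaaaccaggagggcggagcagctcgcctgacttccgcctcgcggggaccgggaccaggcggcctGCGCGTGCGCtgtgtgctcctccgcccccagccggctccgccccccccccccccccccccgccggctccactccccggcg

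Many hypothalamic marker genes were high on all 23 arrays, and some were not. The orexin gene Hcrt lay between 12.58 and 13.10 on the log2 scale. The melanin-concentrating hormone gene Pmch lay between 12.85 and 13.48 and the vasopressin gene Avp between 11.82 and 12.64. Oxt, Trh, Ghrh, Sim1, Nkx2-1, Cartpt and Hdc also lay above the array medians, which were between 8.59 and 8.67. The markers Crh, Kiss1 and Gnrh1 lay below these array medians throughout. Their own medians over the arrays were 7.16, 7.91 and 7.97. The pituitary hormone gene Prl differed widely between arrays, from 5.88 to 11.28. It exceeded 9 on replicates 2 and 4 of vehicle at 6 h, replicate 1 of vehicle at 1 day and replicate 2 of vehicle at 4 days, and on 0 celastrol arrays. Correlations between arrays over all genes lay between 0.990 and 0.998, and no pair of arrays was identical. The tissue was measured in bulk, so a smaller number of cells of a type and less RNA per cell cannot be told apart.

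One array stood apart for the proteasome genes. On replicate 3 of vehicle at 6 h, 29 of the 31 genes lay above their own mean over all arrays, where 42.5% of all genes did. Of the 31, 28 lay above all 3 other vehicle arrays of that time, where 29.7% of all genes did. The exceptions were Psmd2, Psmd3 and Psmd11. The median excess over the mean of the other 3 arrays was 0.27 on the log2 scale, between -0.10 for the lid gene Psmd3 and 0.64 for the alpha ring gene Psma2. All 7 alpha ring genes exceeded the other arrays by 0.38 or more, with a median of 0.52. The catalytic beta genes followed with a median of 0.38, the lid with 0.26, the other beta genes with 0.23, the ATPases with 0.16 and the other base genes with 0.07. The 3 probe sets of Psma3 gave excesses of 0.63, 0.64 and 0.67.

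**Figure D1:**
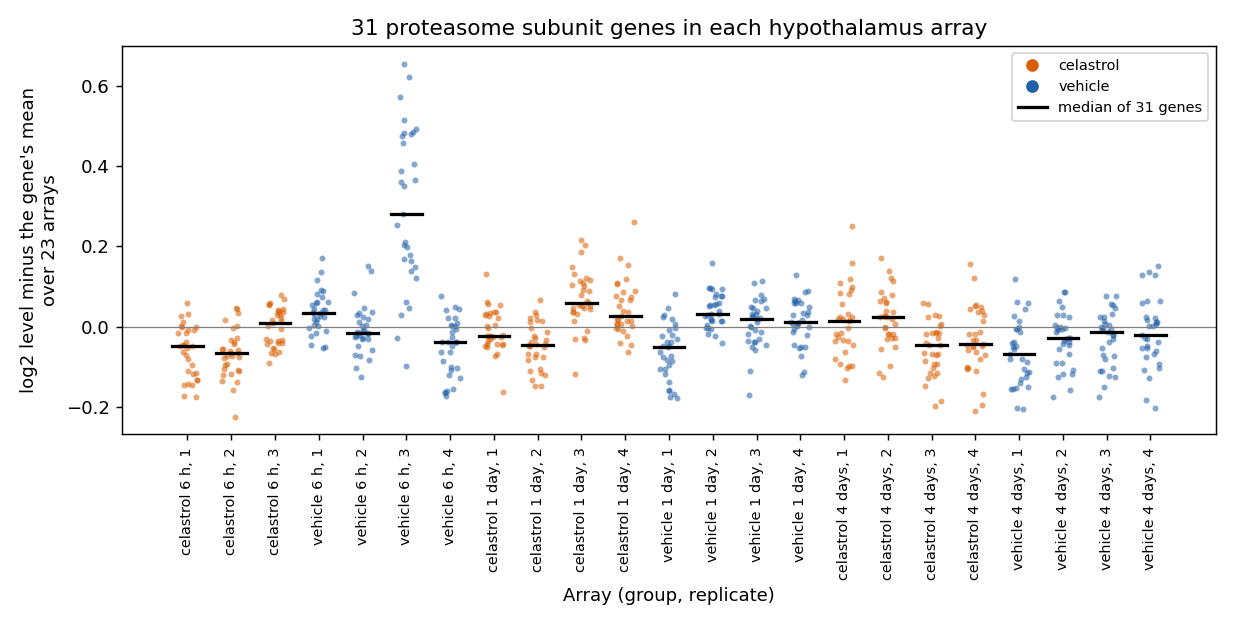
Log2 level of each of the 31 proteasome genes minus its mean over the 23 arrays (vertical axis), by array (horizontal axis), with celastrol in orange left of vehicle in blue at each time; points are genes and bars the median of 31. Replicate 3 of vehicle at 6 h has a median of 0.28, and the other 22 arrays lie between -0.07 and 0.06.

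Other gene groups were also high on this array. All 17 ribosomal protein genes lay above all 3 other arrays, with a median excess of 0.39, and 24 of 28 oxidative phosphorylation genes did, with a median of 0.25. Of the heat shock response genes, 8 of 19 lay above all 3 other arrays, where 29.7% of all genes did. Counted against 0, 9 of these 19 were above, as were 8316 of all 18704 genes. The median was -0.02 for the heat shock list and -0.02 over all genes. Counted likewise against 0, 7 of 8 assembly chaperones of the proteasome were above (median 0.28), as were both measured further 19S genes, Sem1 and Uchl5 (median 0.60). Of the 6 measured regulators, which include Nfe2l1, 0 were above. The pituitary markers were low on this array, 0 of 7 above with a median of -0.74, and Prl stood at 6.72, against 6.21, 11.28 and 10.92 on replicates 1, 2 and 4. The neuronal markers had a median of -0.08, with 4 of 12 above, and the microglial markers a median of 0.20, with 5 of 7 above. The thalamus markers were low, with a median of -0.25, 2 of 9 above 0 and 0 above all 3 other arrays. What these differences contribute to the proteasome values was not tested, so the results at 6 h are given with and without replicate 3.

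**Figure D2:**
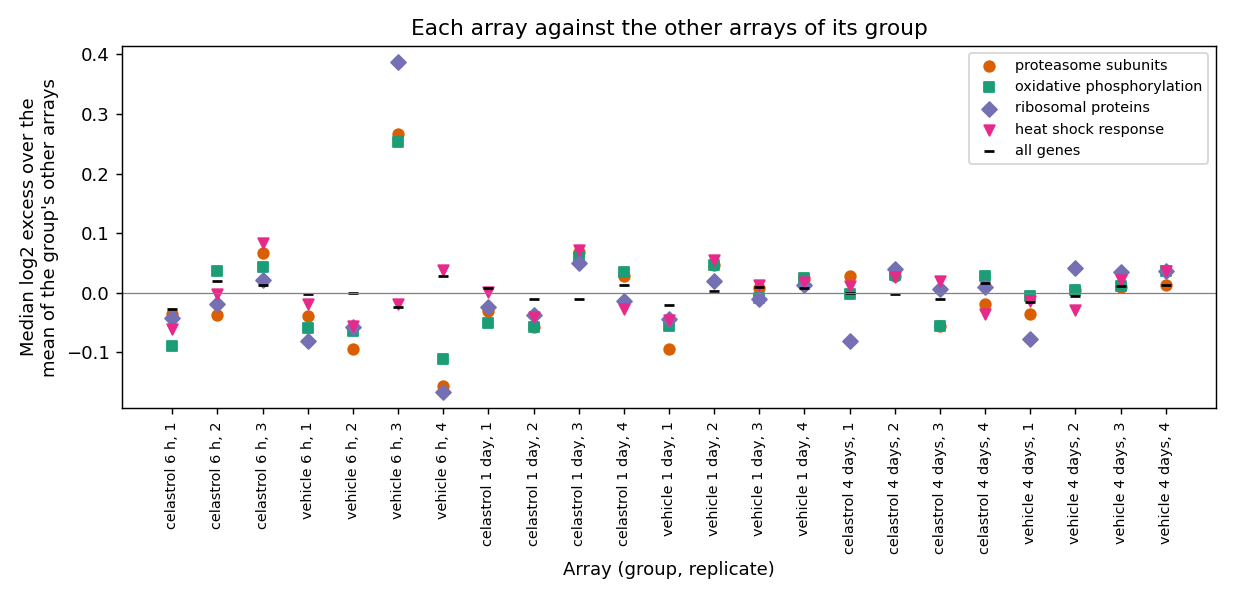
Median log2 excess of each gene list on an array over the mean of the other arrays of its group (vertical axis), by array (horizontal axis), celastrol left of vehicle at each time. On replicate 3 of vehicle at 6 h the ribosomal protein (0.39), proteasome (0.27) and oxidative phosphorylation (0.25) lists stand above the heat shock list and all genes (both -0.02).

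At 6 h, nearly all subunit genes had lower means with celastrol than with vehicle, and none passed the test. Of the 31 genes, 30 lay below 0, where 47.2% of all genes did, with a median log2 difference of -0.10 against 0.01 over all genes. After Benjamini-Hochberg adjustment in limma, 0 of the 31 passed at 0.05, as did 0.0% of all genes. At an unadjusted p under 0.05, 6 were lower (Psma3, Psma4, Psmb1, Psmb7, Psmc6 and Psmd13) and 0 higher, against 6.22% of all genes lower and 8.56% higher. The celastrol and vehicle values did not overlap for 3 genes, all lower with celastrol (Psma4, Psmc4 and Psmd13), where 4.29% of all genes were lower without overlap. Without replicate 3 of vehicle, the median was -0.04 and 25 of 31 lay below 0 (52.0% of all genes). Psmd13 alone then had an unadjusted p under 0.05 (9.93% of all genes), and 0 passed after adjustment, with 0.0% of all genes.

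The log2 values of the celastrol arrays of 6 h also spread less over all genes than those of vehicle, with SDs of 1.87, 1.88 and 1.92, against 1.94, 1.92, 1.93 and 1.92 for vehicle. With this SD as a covariate the median of the 31 genes was -0.04 and 20 lay below 0. Its part in the result was otherwise not tested.

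Other gene lists also lay low at 6 h with celastrol. All 28 oxidative phosphorylation genes were below 0 (median log2 difference -0.08), as were 16 of 17 ribosomal protein genes (-0.10) and 16 of 19 heat shock response genes (-0.08), and 0 of them passed after adjustment. Without vehicle replicate 3, 22 of 28 (-0.01), 9 of 17 (-0.00417) and 16 of 19 (-0.06) were below 0. Of the marker lists, the 8 leukocyte genes did not overlap in mean level, which was between 6.61 and 6.72 on the celastrol arrays, against 6.44 and 6.52 on the vehicle arrays; 7 of 8 were above 0, with a median of 0.19, and 0 passed. The thalamus markers had mean levels between 8.83 and 9.03 with celastrol, against 8.98 and 9.44 with vehicle, with overlap and 8 of 9 below 0 (median -0.13). The part of either list in the proteasome values was not tested.

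In the alpha ring, which forms the gate of the barrel, all 7 genes lay below 0 at 6 h, with differences between -0.23 and -0.08. Psma3 measured 11.34, 11.18 and 11.29 on the celastrol arrays, against 11.40, 11.29, 11.97 and 11.33 on the vehicle arrays. The groups overlapped, and vehicle replicate 3 was the highest by 0.574. Its log2 difference was -0.23 (SE 0.11, adjusted p = 0.318), and -0.07 without replicate 3. Psma4 measured 9.98, 9.94 and 10.03 with celastrol, against 10.05, 10.08, 10.46 and 10.08 with vehicle. All 3 celastrol arrays lay below all 4 vehicle arrays, the nearest of which was 0.0199 away. The difference was -0.19 (SE 0.07, adjusted p = 0.246), and -0.09 without replicate 3 (unadjusted p = 0.0702). The other alpha genes, Psma1, Psma2, Psma5, Psma6 and Psma7, had differences between -0.18 and -0.08. Without replicate 3 these lay between -0.05 and 0.06, and Psma7 was above 0. For Psma5, the probe set used gave -0.16, and -0.05 without replicate 3. Its other probe set gave -0.04, and 0.065 without replicate 3.

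The catalytic genes Psmb5, Psmb6 and Psmb7 were all below 0 at 6 h. Psmb7, the trypsin-like subunit, measured 10.34, 10.36 and 10.43 with celastrol, against 10.49, 10.60, 10.85 and 10.30 with vehicle. Vehicle replicate 4 was below all 3 celastrol arrays, so the groups overlapped. The difference was -0.18 (SE 0.08, adjusted p = 0.306), and -0.09 without replicate 3. Psmb6, the caspase-like subunit, measured 10.52, 10.62 and 10.72 with celastrol, against 10.68, 10.74, 11.06 and 10.61 with vehicle, a difference of -0.15 (SE 0.08, adjusted p = 0.379). Psmb5, the chymotrypsin-like subunit, measured 12.69, 12.83 and 12.78 with celastrol, against 12.79, 12.82, 13.01 and 12.77 with vehicle, a difference of -0.08 (SE 0.06). In both genes the groups overlapped, and without replicate 3 the differences were -0.05 for Psmb6 and -0.02 for Psmb5.

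The other beta ring genes are structural. Psmb1 measured 11.10, 11.08 and 11.21 with celastrol, against 11.31, 11.13, 11.76 and 11.16 with vehicle. Celastrol replicate 3 lay above 2 vehicle arrays. The difference was -0.21 (SE 0.10, adjusted p = 0.32), and -0.07 without replicate 3. Psmb2, Psmb3 and Psmb4 had differences between -0.15 and -0.05, and between -0.10 and 0.01 without replicate 3.

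In the base, all 6 ATPase genes lay below 0, with differences between -0.21 for Psmc6 and -0.02 for Psmc2. Psmc6 measured 10.43, 10.25 and 10.44 with celastrol, against 10.48, 10.37, 10.99 and 10.48 with vehicle. Vehicle replicate 2 lay below 2 celastrol arrays, and without replicate 3 the difference was -0.07. Psmc4 measured 10.49, 10.48 and 10.52 with celastrol, against 10.59, 10.53, 10.61 and 10.54 with vehicle, with no overlap. Without replicate 3, 3 of the 6 ATPase genes lay below 0. The ubiquitin receptor gene Psmd4 measured 9.86, 9.90 and 9.95 with celastrol, against 10.01, 9.98, 10.14 and 9.83 with vehicle, with overlap. Its difference was -0.08 (SE 0.06), and -0.03 without replicate 3. The scaffold genes Psmd1 and Psmd2 had differences of -0.03 each, and of -0.01 and -0.05 without replicate 3.

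The lid held the gene of smallest p at 6 h, the structural subunit Psmd13. It measured 10.22, 10.26 and 10.26 with celastrol, against 10.39, 10.27, 10.60 and 10.35 with vehicle. The celastrol arrays were all lower, by 0.0065 at the nearest. The difference was -0.16 (SE 0.05, adjusted p = 0.221), and -0.09 without replicate 3 (unadjusted p = 0.0304, adjusted p = 0.468). The deubiquitinase gene Psmd14 measured 11.56, 11.48 and 11.48 with celastrol, against 11.59, 11.46, 11.99 and 11.61 with vehicle, with overlap. Its difference was -0.16 (SE 0.08), and -0.05 without replicate 3. The structural lid gene Psmd3 was the one gene above 0, by less than 0.01, with 10.14, 10.20 and 10.19 with celastrol, against 10.25, 10.18, 10.10 and 10.16 with vehicle. Without replicate 3, on which it was low, its difference was -0.02. The 8 lid genes ranged between -0.18 and 0.00, and between -0.09 and 0.04 without replicate 3.

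**Figure D3:**
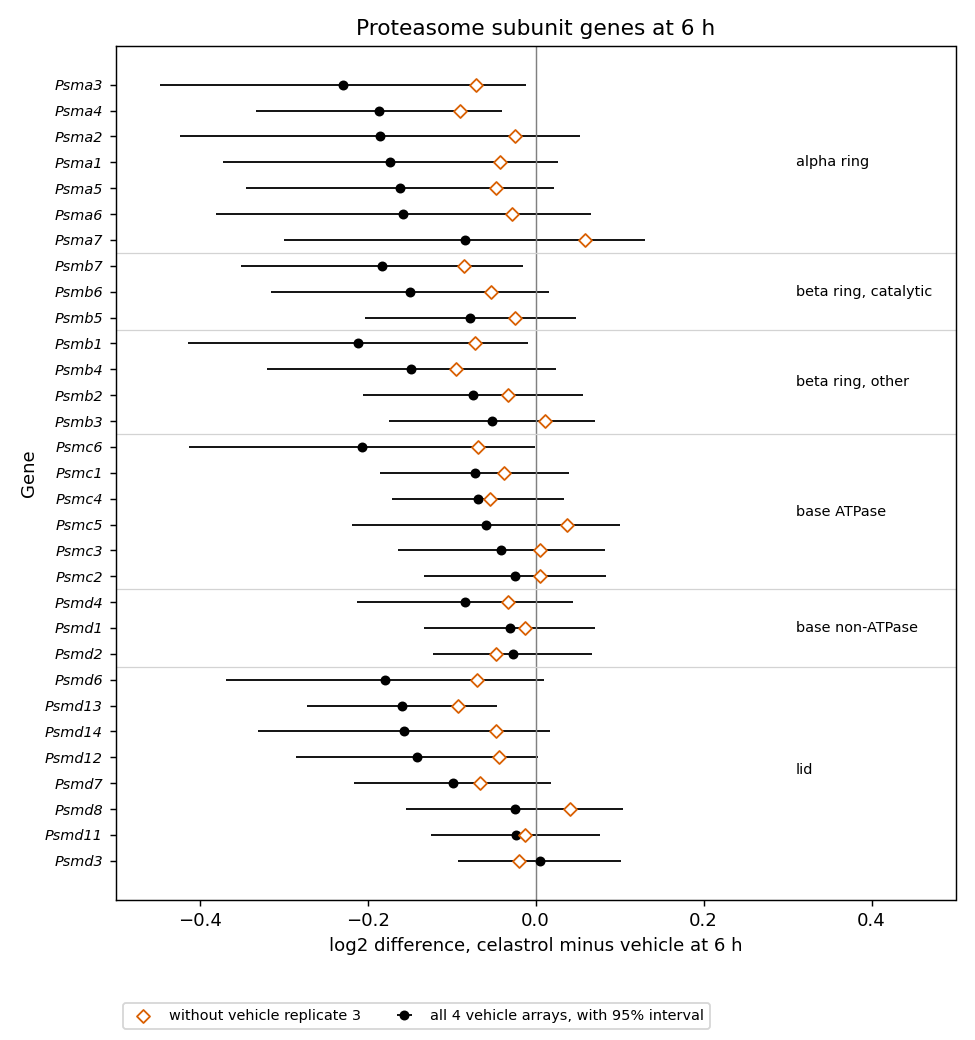
Log2 difference of celastrol minus vehicle at 6 h (horizontal axis) for each gene (vertical axis), grouped by place in the proteasome; black points use all 4 vehicle arrays, with 95% intervals, and open diamonds leave out vehicle replicate 3. The black points lie below 0 for 30 of 31 genes and the diamonds for 25.

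At 1 day, none of the subunit genes passed the test. The median difference was 0.01, as over all genes, and 12 of 31 lay below 0 (45.9% of all genes). After adjustment 0 passed (0.016% of all genes), and 0 had an unadjusted p under 0.05 (12.5%). The differences ranged between -0.08 for Psmc6 and 0.13 for Psmb4. The 3 catalytic genes were all above 0, with 0.01 for Psmb7, 0.05 for Psmb5 and 0.08 for Psmb6. The widest 95% limits of any member were -0.27, for Psmc6, and 0.29, for Psmb4.

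Psmd8, a lid gene, had the smallest p at 1 day. It measured 10.71, 10.70, 10.78 and 10.74 with celastrol, against 10.62, 10.65, 10.56 and 10.62 with vehicle. The groups did not overlap, and celastrol was higher, as in 6.44% of all genes. The difference was 0.12 (SE 0.06, adjusted p = 0.408). Psmc6 was the one gene with all celastrol arrays lower, at 10.43, 10.46, 10.51 and 10.50, against 10.56, 10.55, 10.54 and 10.56 with vehicle, as in 4.56% of all genes.

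At 4 days, 11 of 31 genes lay below 0 (50.3% of all genes), with a median of 0.01 against 0.00 over all genes. After adjustment 0 passed (0.0% of all genes), and 0 had an unadjusted p under 0.05 (7.29%). The catalytic genes were again all above 0, with 0.06 for Psmb6, 0.08 for Psmb5 and 0.10 for Psmb7. Psmd11, a lid gene and the one of smallest p, measured 10.47, 10.51, 10.51 and 10.38 with celastrol, against 10.45, 10.33, 10.37 and 10.40 with vehicle. The groups overlapped, and the difference was 0.08 (SE 0.05, adjusted p = 0.758). Psma3 was the one gene without overlap, higher with celastrol at 11.22, 11.30, 11.35 and 11.22, against 11.12, 11.14, 11.14 and 11.19 with vehicle, where 1.87% of all genes were higher without overlap. Its difference was 0.12 (SE 0.10, adjusted p = 0.857).

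The mean of the 3 differences was below 0 for 24 of 31 genes (46.7% of all genes), with a median of -0.02, and 0 passed (0.0% of all genes). Without replicate 3 of vehicle at 6 h, 17 lay below 0 (48.3% of all genes). The smallest p then belonged to Psmd8, with a mean difference of 0.09 (unadjusted p = 0.00577, adjusted p = 0.263). An F test of whether the celastrol difference changed between times called 0 of 31 genes (0.0588% of all genes). Psmd13 had the smallest p (unadjusted 0.0238, adjusted p = 0.304), and it alone had an unadjusted p under 0.05 (13.0% of all genes).

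**Figure D4:**
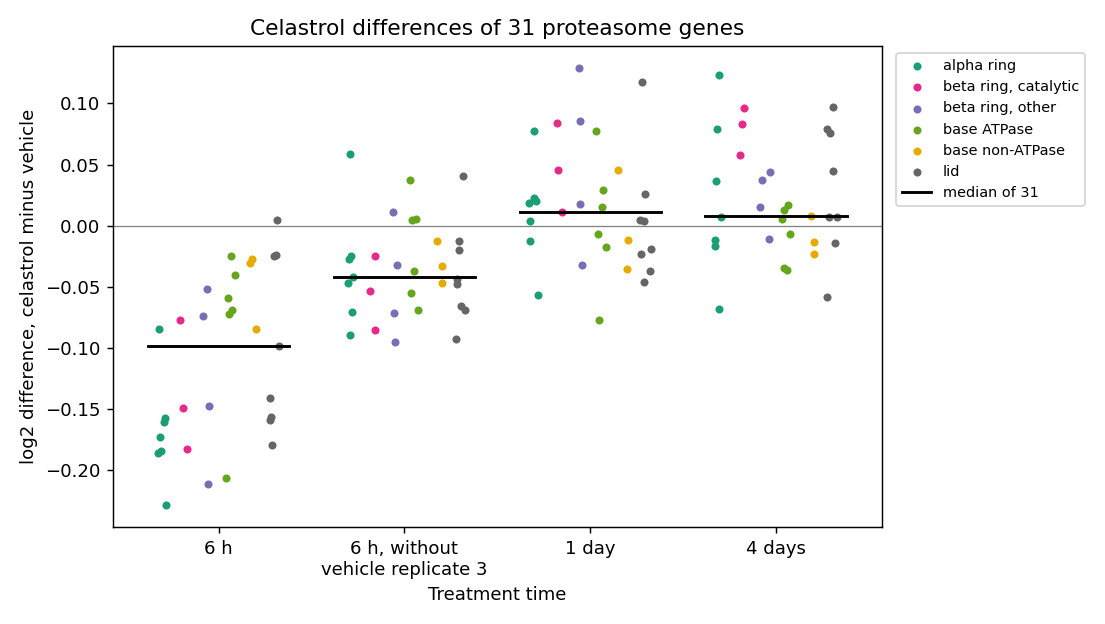
Log2 difference of celastrol minus vehicle (vertical axis) for the 31 genes at 6 h, at 6 h without vehicle replicate 3, at 1 day and at 4 days (horizontal axis); points are genes coloured by place in the proteasome and bars the medians. The medians are -0.10, -0.04, 0.01 and 0.01.

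The vehicle groups were also compared with each other over time. The comparisons with 6 h share the vehicle arrays of that time with the celastrol comparison. In vehicle mice at 1 day, 27 of 31 genes lay below their 6-h level (54.1% of all genes), with a median of -0.07, and 0 passed (0.0% of all genes). At an unadjusted p under 0.05, 2 were lower, Psmb1 and Psmb4 (6.68% of all genes). Psmb4, a structural beta gene and the one of smallest p, measured 11.63, 11.84, 11.79 and 11.69 at 1 day, against 11.90, 11.96, 12.08 and 11.77 at 6 h. The groups overlapped, and the difference was -0.19 (SE 0.08, adjusted p = 0.413). Without replicate 3 of 6 h, 13 of the 31 lay below 0 (54.6% of all genes) and the median was 0.01.

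In vehicle mice at 4 days, 2 genes, Psma3 and Psmd14, were lower than at 6 h after adjustment, where 2.0% of all genes were. In all, 25 of 31 lay below 0 (37.9% of all genes), with a median of -0.09 against 0.04 over all genes. At an unadjusted p under 0.05, 9 were lower and 0 higher, against 9.02% of all genes lower and 14.9% higher. Psma3 measured 11.12, 11.14, 11.14 and 11.19 at 4 days, against 11.40, 11.29, 11.97 and 11.33 at 6 h. Every 4-day array lay below every 6-h array. The difference was -0.35 (SE 0.10, adjusted p = 0.0451), and -0.19 without replicate 3 (unadjusted p = 0.00259, adjusted p = 0.0944).

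Psmd14 measured 11.39, 11.41, 11.41 and 11.33 at 4 days, against 11.59, 11.46, 11.99 and 11.61 at 6 h. The groups did not overlap, as for Psma3. The share of all genes without overlap was not counted for comparisons between vehicle groups. The difference was -0.28 (SE 0.08, adjusted p = 0.0466), and -0.17 without replicate 3 (unadjusted p = 0.00795, adjusted p = 0.147). Both calls were lost without any one of the 4 arrays of 4 days, and without replicate 1 or 3 of 6 h; the lowest and highest adjusted p-values over the arrays left out were 0.0239 and 0.0944 for Psma3 and 0.0189 and 0.147 for Psmd14. Without replicate 3, 0 of the 31 passed (1.09% of all genes), 20 lay below 0 (39.7%) and the median was -0.02. The other probe sets of Psma3 gave differences of -0.33 and -0.37. Those of other genes differed more: Psma5, among the 9 lower at an unadjusted p under 0.05, had -0.17 on the probe set used and 0.03 on its other one. Psmc1 had 0.01 and -0.16, Psmb3 had -0.0025 and 0.08, and Psmd2 had -0.05 and 0.0018.

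Between vehicle at 4 days and at 1 day, neither of which includes the array that stood apart, 0 of 31 genes passed (11.8% of all genes). The median was -0.02, against 0.03 over all genes, and 20 lay below 0 (39.3% of all genes). At an unadjusted p under 0.05, Psmd11 and Psmd14 were lower (8.65% of all genes) and Psmb5 was higher (20.5%). Psmb5 measured 12.80, 12.92, 12.88 and 12.99 at 4 days, against 12.70, 12.80, 12.67 and 12.76 at 1 day. The 4-day arrays were all higher, by 0.0038 at the nearest, with a difference of 0.17 (SE 0.06, adjusted p = 0.0551). Psmd14 had a difference of -0.22 (SE 0.08, adjusted p = 0.0639), and Psma3 one of -0.20 (SE 0.10, adjusted p = 0.18). Leaving out replicate 3 of 6 h changes no value of these 2 groups but lowers the shared estimate of spread, and 3 of 31 then passed (14.5% of all genes): Psmb5 (adjusted p = 0.0263) higher, and Psma3 (adjusted p = 0.0171) and Psmd14 (adjusted p = 0.0109) lower at 4 days. In celastrol mice, Psmb5 measured 12.69, 12.83 and 12.78 at 6 h, 12.79, 12.77, 12.72 and 12.83 at 1 day, and 13.09, 12.95, 12.90 and 12.99 at 4 days. All 4 of the last lay above all earlier celastrol arrays. This difference was not tested, and the share of all genes separated in this way was not counted.

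**Figure D5:**
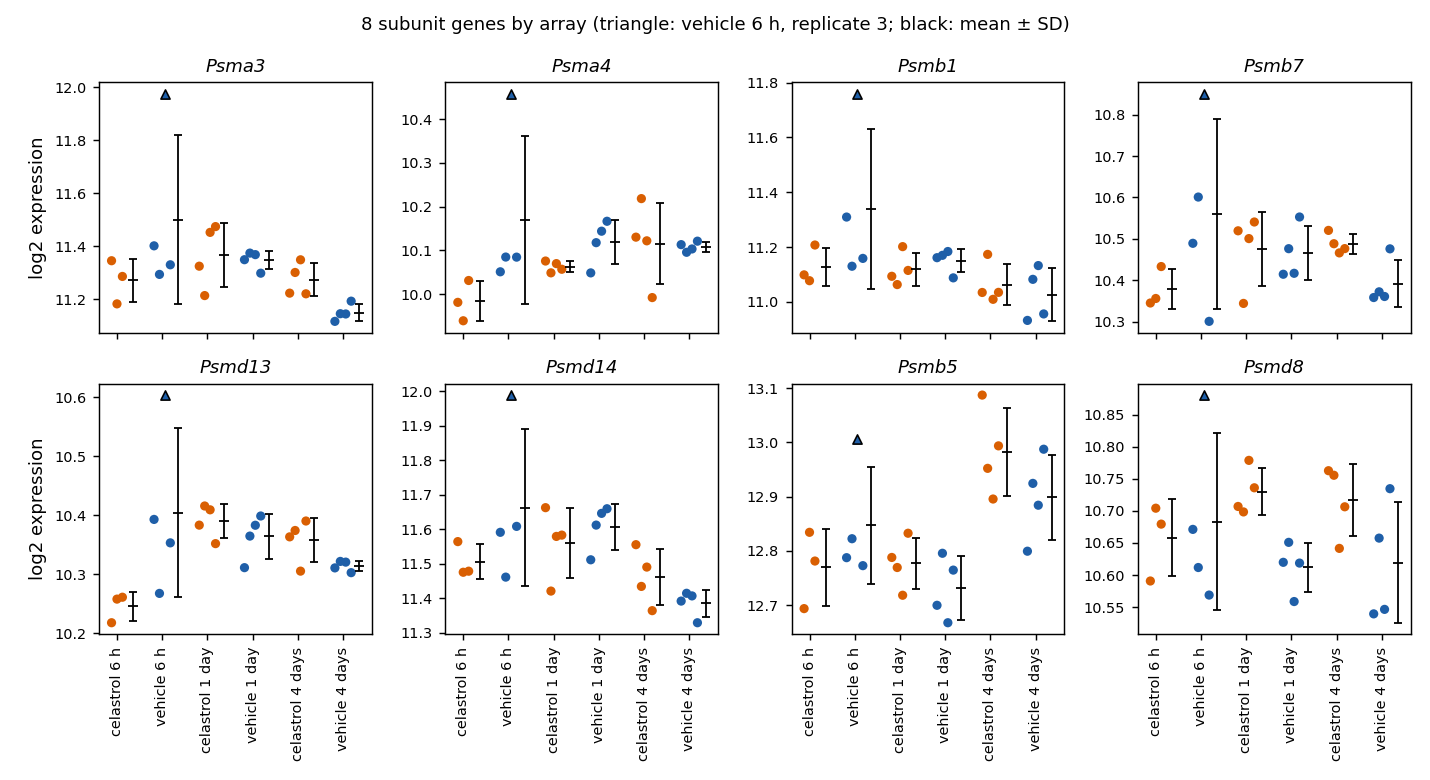
Log2 expression (vertical axes) of 8 subunit genes on every array by group (horizontal axes), celastrol in orange left of vehicle in blue at each time; triangles mark vehicle replicate 3 at 6 h and black marks the mean ± SD. In Psma3, Psma4, Psmb1, Psmb7, Psmd13, Psmd14 and Psmd8 the triangle is the highest of all 23 arrays, and in Psmb5 it is not.

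Other genes of the ubiquitin-proteasome system, from lists chosen with earlier results of these data known, did not pass in any celastrol comparison. Of 6 activators and inhibitors, 3 immunoproteasome genes, 8 assembly chaperones, 12 ubiquitin and shuttle genes, 6 regulators and the further 19S genes Sem1 and Uchl5, 0 passed at 6 h, 1 day or 4 days. At 6 h the lowest p belonged to Psmg1, an assembly chaperone of the alpha ring, with a difference of -0.29 (adjusted p = 0.24), and to Psme3, the PA28 gamma activator, with -0.13 (adjusted p = 0.245). Without vehicle replicate 3 these differences were -0.14 (adjusted p = 0.525) and -0.10 (adjusted p = 0.493), and the lowest p belonged to Vcp, an ATPase that extracts ubiquitinated proteins, with -0.10 (adjusted p = 0.453). At 1 day it belonged to Psmg3, another chaperone of the alpha ring.

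Psmg3 measured 7.13, 7.03, 7.07 and 7.28 with celastrol at 1 day, against 6.91, 6.79, 6.72 and 6.89 with vehicle at 1 day. The celastrol arrays were all higher, as in 6.44% of all genes, with a difference of 0.30 (SE 0.07, adjusted p = 0.101). The vehicle arrays of 1 day were also low beside the other vehicle arrays: vehicle at 4 days measured 7.15, 7.20, 7.08 and 7.04, and was higher than vehicle at 1 day by 0.29 (adjusted p = 0.00863). Between the same vehicle groups, Uba6, a ubiquitin-activating enzyme, was lower at 4 days (log2 difference -0.23, adjusted p = 0.0114). Psme4, the PA200 activator, was lower too (-0.14, adjusted p = 0.0354). After adjustment, 11.8% of all genes passed between these 2 vehicle groups, in either direction. Between vehicle at 4 days and at 6 h, Psmg2 (-0.29, adjusted p = 0.0258) and Psmd5, a chaperone of the base (-0.18, adjusted p = 0.0487), were lower at 4 days. After adjustment, 2.0% of all genes were lower in this comparison. Without replicate 3 of 6 h the adjusted p-values of Psmg2 and Psmd5 were 0.0935 and 0.145, and 1.09% of all genes passed.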

How the data were processed

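The files hold log2 expression values, 1 per probe set and array, for which the authors ran RMA, per the submitters' processing notes. Its software, version and filters are not stated there. The deposited log2 values entered the fit unchanged. Probe sets were named through the array's annotation table: of 23492, 20228 named 1 gene, 1399 several and 1865 none. For 809 genes with several probe sets, 5 of the 31 among them, the one with the highest mean was used. All 18704 genes were fitted with limma 3.58.1 in R 4.3.3 (6 group means, 17 residual degrees of freedom) and p-values were adjusted over all of them by Benjamini-Hochberg. The fit was tested on simulated data. Precision is limited by how many arrays there are: at 6 h the 95% interval of a difference reached 0.147 to either side, at the median. Array medians lay between 8.59 and 8.67.

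The members and lists were chosen with earlier results of these data known. Values per array are given for genes past adjusted p 0.05, the genes of smallest p in each comparison, the catalytic genes, Psmd14, Psmd4 and any gene of opposite sign at 6 h; Psmc4 and Psmc6 were added after their values were seen. Adrm1, Paaf1 and Ubb had no probe set naming them alone and were not analysed here. Alternatives were other normalisations, fits, probe sets, controls and each array left out. Same-numbered arrays of different groups did not deviate together (mean correlation -0.00458 over 55 pairs, 9 over 0.1), so the numbers were not taken as pairs.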

Additional observations from a re-analysis of the deposited data

Results flagged for a closer look

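Of 70 sets of 4 values (a gene in a group) examined for an array far from the others, 5 had a gap to the nearest array, divided by the whole range, above Dixon's 95% value for 4 samples; chance gives about 5% of such sets. Psma4 (0.917) and Psma3 (0.842) had replicate 3 of vehicle at 6 h as the highest array. In Psmd11 (0.895) replicate 2 of vehicle at 6 h was the lowest. In Psmb7 (0.883) replicate 4 of vehicle at 4 days was the highest, and in Psmb1 (0.845) replicate 2 of celastrol at 4 days was. The sets examined did not cover all 31 genes, so other genes can hold such arrays. Psmd12, which was not examined, measured 10.88 on replicate 3 of vehicle at 6 h, against 10.52, 10.49 and 10.48.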

How the results depend on the processing

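In the comparisons other than vehicle at 4 days against 6 h or 1 day, 0 members passed after adjustment under every alternative run. The median difference at 6 h was -0.21 without the arrays with Prl above 9, which leaves vehicle replicates 1 and 3, and -0.022 against the vehicle arrays of 1 day and 4 days. With single arrays left out it lay between -0.16 and -0.04, the last without replicate 3 of vehicle. Against the later vehicle arrays, Psma3 (0.0226), Psmb1 (0.0395) and Psmd14 (0.00958) turned above 0. Psmd3, near 0, turned below 0 with array weights (-0.0147), with all 12 vehicle arrays as control (-0.0196), with the later vehicle arrays (-0.0318), and when single arrays were left out (between -0.0195 and 0.0311). For vehicle at 1 day against 6 h, the median was -0.00303 with array weights, -0.15 without the arrays with Prl above 9, and between -0.124 and 0.00976 with single arrays left out. For vehicle at 4 days against 6 h, 0 members passed with a further quantile normalisation, array weights, only the groups compared or the SD covariate, 7 passed without the arrays with Prl above 9 (median -0.19), and between 0 and 4 with single arrays left out. For vehicle at 4 days against 1 day, 1 passed with centred arrays, 1 with a robust trend, 3 with array weights, 2 with only the groups compared and between 0 and 1 with single arrays of these groups left out, and the median was 0.0733 with the SD covariate. The cause was not tested. With the replicate number as a replicate block, the median at 6 h was -0.10, 3 members passed for vehicle at 4 days against 6 h, and no other call changed. Apart from the fit without replicate 3 of vehicle at 6 h, shares of all genes passing under these alternatives are not given here. The counts are therefore not read as a result about the members. In the main fit, 2.0% of all genes passed as lower at 4 days than at 6 h in vehicle, and 11.8% passed between 4 days and 1 day.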
